A study of Mus musculus with 12 samples.

Results

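The genes described here encode the proteins of the mitochondrial ribosome. They were chosen by symbol, as every gene present in both deposited count tables whose name is Mrpl or Mrps followed by a number and at most 1 letter. This gave 78 genes of the 13625 symbols that both tables hold, 49 of the large subunit (Mrpl) and 29 of the small subunit (Mrps). No expression value entered the choice, and all 78 passed the filter on low counts in every comparison. The rule follows the symbols, so it leaves out ribosomal proteins with other names, such as Dap3 and Ptcd3, and it holds Mrps36, whose product is also known as KGD4, a subunit of the alpha-ketoglutarate dehydrogenase complex. By symbol, Mrps18a and Mrps30 are counted with the small subunit throughout, although their products lie in the large subunit in ribosome structures.

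The mitochondrial ribosome translates the few messenger RNAs that mitochondrial DNA encodes, all of them for subunits of the respiratory chain and ATP synthase. Its RNA comes from mitochondrial DNA, whereas every protein of it is encoded in the nucleus, made in the cytosol and imported. The large subunit holds the centre where peptide bonds form and the tunnel through which the new chain leaves, and the small subunit holds the messenger RNA and the decoding centre. T cells that are activated through their receptor increase mitochondrial mass and translation, and exhausted T cells are known for poor mitochondrial function.

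RNA was sequenced from OT-I CD8+ T cells, which come from the spleen of mice with a transgenic receptor for an ovalbumin peptide. All cells were first expanded with antibodies to CD3e and CD28 and with IL-2, with either ATRA, the vitamin A metabolite all-trans retinoic acid, at 5 ng/mL or an equal volume of its solvent DMSO (CTRL). After 5 further days of culture, all were kept for 72 h at 1% oxygen with ovalbumin-expressing GL261 glioma cells, without added ATRA, a setting that the labels use to induce exhaustion in vitro. Live CD45.2+ cells were sorted at that point (CTRL co-culture and ATRA co-culture) or after 24 h of renewed stimulation through CD3e (CTRL restimulated and ATRA restimulated), with 3 libraries in each of the 4 groups. Nothing in the labels tells apart mice or cultures within a group, so p-values reflect only how far these libraries scatter, and that scatter may be technical. Libraries of the 2 states come from different batches and were deposited in separate tables, so state, batch and table cannot be told apart. Totals were 23558244 to 26111497 counts per library after co-culture and 16288111 to 20115836 after restimulation, and single members had 49 to 3911 counts in a library. Replicate 3 of ATRA co-culture stood apart from the other libraries of its group, with correlations of log CPM across genes of 0.948 and 0.962 against 0.990 between the other two. Replicate 1 of CTRL co-culture correlated with the others of its group at 0.978 and 0.980, against 0.994 between those. Replicate 3 of ATRA co-culture was the lowest of the 6 co-culture libraries for 42 of the 78 members and the highest for 12, so the counts of that state are also given without this library. Summed markers of CD8 T cells were at 2133 to 3357 CPM in the 12 libraries.

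Mean transcript abundance of the members ran from 10.9 to 491.1 TPM in restimulated cells. On the deposited TPM scale, which takes account of transcript length and was available for the restimulated cells, the median member had 51.3 TPM over the 6 columns, and the quartiles were 39.1 and 82.7 TPM. The medians of the large and small subunit genes were 49.1 and 54.0 TPM. Mrps21, a homologue of a bacterial small subunit protein, was the most abundant at 534.0 ± 41.0 TPM in CTRL and 448.2 ± 12.6 TPM in ATRA cells (SD, n = 3). Mrpl42, a protein of the large subunit without a bacterial counterpart, followed at 424.6 ± 16.04 and 282.6 ± 10.0 TPM. Mrps18c, 1 of 3 homologues of bacterial protein S18, came next at 261.7 ± 17.5 TPM in CTRL and 303.3 ± 5.18 TPM in ATRA cells. Mrps21 came first in both groups, while Mrps18c lay above Mrpl42 in ATRA cells.

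At the other end were Mrpl23, Mrpl14 and Mrps26. Mrpl23, at the exit of the peptide tunnel, had 15.9 ± 6.49 TPM in CTRL and 5.96 ± 1.28 TPM in ATRA restimulated cells, the lowest mean of all members at 10.9 TPM. This level is uncertain, because a row named as its pseudogene copy, Mrpl23-ps1, held 2948 to 4076 counts per co-culture library and 1373 to 1879 per restimulated library, against 75 to 191 and 49 to 175 for Mrpl23 itself. Mrpl14, at the interface of the subunits, where the assembly factor MALSU1 binds it, had 19.5 ± 3.43 and 9.20 ± 0.679 TPM. Mrps26 had 17.5 ± 3.85 and 14.96 ± 1.68 TPM, values that overlapped between the groups. In no other member with a pseudogene row did that row exceed 7 counts in a library.

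**Figure D1:**
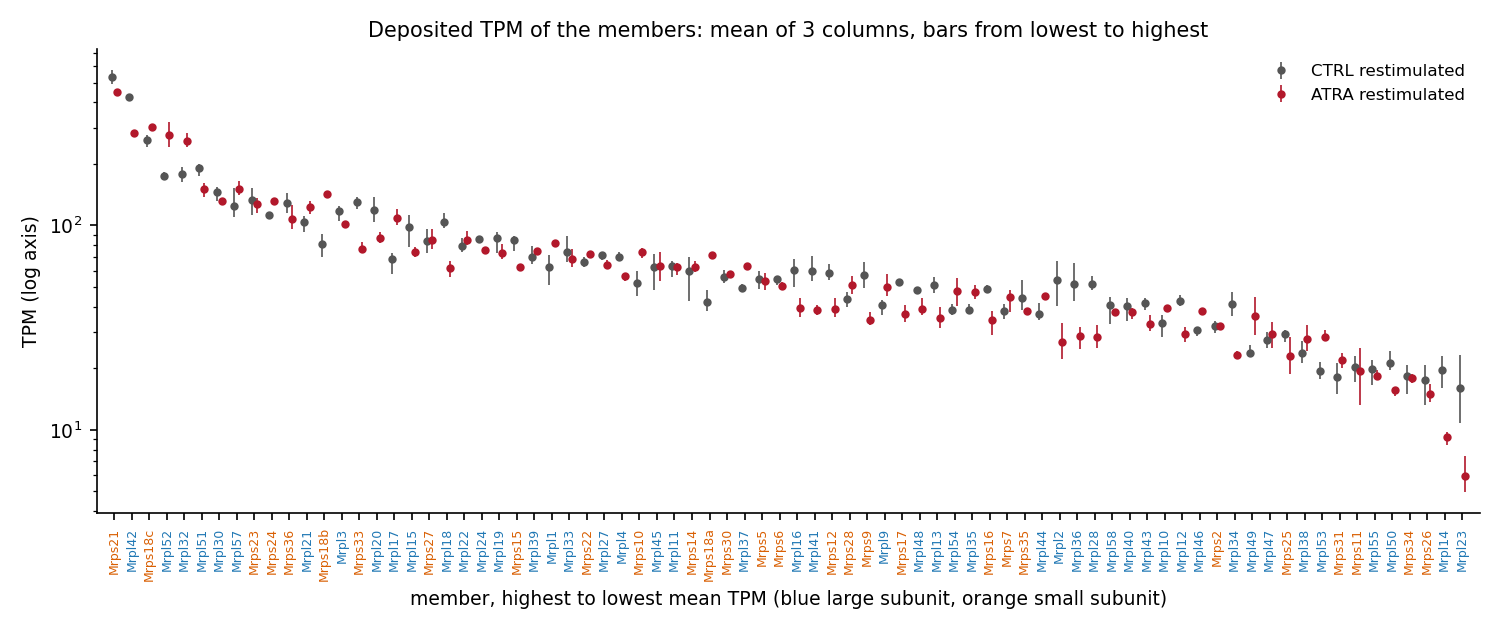
Deposited TPM (vertical axis, logarithmic) of the 78 members in restimulated cells, ordered from the highest to the lowest mean over 6 columns. Points are means of 3 columns per group and bars run from the lowest to the highest column. The median is 51.3 TPM and the quartiles are 39.1 and 82.7 TPM, with Mrps21 at the top and Mrpl23 at the bottom.

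The first comparison asked how earlier exposure to ATRA altered these genes at the end of the co-culture. Of the 78 members 17 fell and 3 rose at an adjusted p under 0.05 (edgeR's quasi-likelihood test, adjusted over all genes), while 58 passed in neither direction. Of all 12111 genes tested, 15.5% fell and 18.1% rose, beside 21.8% and 3.85% of the members. Among the members, 11 of 49 large subunit genes fell and 2 rose, and 6 of 29 small subunit genes fell and 1 rose. The median log2 fold change was -0.30 over the members and 0.01 over all genes tested, and 58 of the 78 values were negative, from -0.87 to 0.80. For 40 members every ATRA library lay below every CTRL library, and for 10 every one lay above. How many of all genes tested lay apart in this way was not counted, so these numbers only describe the members.

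How many members fell depended on the libraries and on the model. The count of 17 was 6 with the batch, which same-numbered CTRL and ATRA libraries share, as a block, and these were Mrpl16, Mrpl20, Mrpl22, Mrpl50, Mrpl51 and Mrps21. It was 10 without CTRL replicate 1, 3 without ATRA replicate 2, and 25 without ATRA replicate 3, where all 17 were again called. Without CTRL replicate 2 or without CTRL replicate 3, edgeR called 0 lower, with 18 and 14 members lower at an unadjusted p under 0.05. DESeq2 on all 6 libraries called 27 lower. The median over the members stayed between -0.33 and -0.22 when single libraries were left out. The number of all genes called lower moved with the setting too. Of 12111 genes it was 1883 as reported and 1231 with the block. It was 1540 of 12403 without CTRL replicate 1, 759 of 12363 without CTRL replicate 2 and 673 of 12377 without CTRL replicate 3. Without ATRA replicate 2 it was 891 of 12299, and without ATRA replicate 3 it was 2859 of 12363. DESeq2 called 2552 genes lower. The share called lower was smaller among the members than among all genes with the block and without ATRA replicate 2. It was also smaller without CTRL replicate 2 or without CTRL replicate 3. Summed markers of GL261 glioma cells lay between 134.4 and 164.0 CPM in CTRL, and between 81.7 and 91.3 CPM in ATRA co-culture libraries, with 2 of the 11 markers, Pdgfra and S100b, not listed or at 0. Those of dendritic cells and macrophages were 22.8 to 28.4 and 24.99 to 27.6 CPM, with 3 of 8 not listed or at 0 (Csf1r, Adgre1 and Lyz2). The part of other cells in these results was not tested, and in bulk RNA fewer cells of a type and less RNA per cell cannot be told apart.

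The largest decrease was that of Mrpl20, a large subunit protein with a bacterial homologue. Its level was 49.9, 65.9 and 63.4 CPM in the CTRL libraries and 37.2, 35.2 and 25.4 CPM in the ATRA libraries, so that the groups did not overlap. The log2 fold change was -0.87 ± 0.18 (SE, adjusted p = 0.0143), and -0.73 without ATRA replicate 3. Mrpl16, which lies by the catalytic centre, was at 41.0, 47.3 and 45.0 CPM in CTRL and 31.3, 27.1 and 22.3 CPM in ATRA cells. It fell by 0.72 on the log2 scale (SE 0.15, adjusted p = 0.0129). Mrpl50, a protein found in mitochondrial but not in bacterial ribosomes, was at 22.9, 26.9 and 27.8 CPM in CTRL and 16.8, 17.6 and 16.7 CPM in ATRA cells. Its log2 fold change of -0.60 ± 0.12 had the smallest p of the members that fell (adjusted p = 0.0123). The ATRA values of Mrpl50 lay within 1 CPM of each other, replicate 3 included.

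Among small subunit genes, Mrps22, mutated in a human mitochondrial disease, was at 36.3, 52.1 and 50.7 CPM in CTRL and 30.8, 29.3 and 24.3 CPM in ATRA cells. It fell by 0.72 on the log2 scale (SE 0.17, adjusted p = 0.0224), and the batch block ended that call (adjusted p = 0.0514). Mrps27, a pentatricopeptide repeat protein, fell from 36.1 ± 3.09 to 26.5 ± 0.898 CPM (log2 fold change -0.45 ± 0.11, adjusted p = 0.0223). Mrps6 fell from 38.8 ± 2.77 to 27.3 ± 3.63 CPM (log2 fold change -0.51 ± 0.13, adjusted p = 0.0269). Mrps6 shares exon sequence with Slc5a3 on the same strand in GENCODE M21, so its counts may hold reads of that gene. Slc5a3, an inositol transporter gene, had a log2 fold change of -0.44 (adjusted p = 0.152) in the same comparison. The batch block also ended the calls of Mrps27 and Mrps6 (adjusted p = 0.0689 and 0.0609).

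Mrpl30, Mrps16 and Mrpl14 were the 3 members called higher. Mrpl30, the homologue of bacterial L30, was at 61.8, 52.6 and 49.9 CPM in CTRL and 95.01, 93.4 and 97.0 CPM in ATRA co-culture cells. Its log2 fold change of 0.80 ± 0.11 had the smallest p of all members (adjusted p = 0.00384), and it was called in each fit that left out 1 library. Mrps16, a conserved small subunit protein whose loss impairs mitochondrial translation in patients, was at 38.4, 35.05 and 39.1 CPM in CTRL and 58.6, 55.8 and 54.2 CPM in ATRA cells. The log2 fold change was 0.58 ± 0.10 (adjusted p = 0.00672). Mrpl14 was at 6.33, 5.98 and 6.83 CPM in CTRL and 8.69, 9.67 and 12.0 CPM in ATRA cells. Its rise of 0.67 ± 0.18 on the log2 scale (adjusted p = 0.0315) lost its call with the batch block (adjusted p = 0.0665) and lost it in 4 of the 6 fits that left out 1 library. In all 3 genes the lowest ATRA library lay above the highest CTRL library. Exons of Mrpl14 overlap those of Tmem63b on the other strand. The strand setting of the counting is not given in the sources used here, so reads of these genes cannot be told apart, and Tmem63b rose too (log2 fold change 0.90, adjusted p = 0.0271).

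After restimulation, the effect of ATRA ran in both directions. Of the 78 members 30 fell and 18 rose, and 30 passed in neither direction. Of all 12783 genes tested, 30.8% fell and 31.8% rose, beside 38.5% and 23.1% of the members. Large subunit genes made up 21 of those that fell and 14 of those that rose, and small subunit genes 9 and 4. The median log2 fold change was -0.14 over the members, against 0.02 over all genes, and values ran from -1.31 to 0.78. When single libraries were left out, 26 to 33 fell and 13 to 17 rose, and 29 and 16 of the called members were called again with the batch block. DESeq2 called 29 lower and 14 higher, all 12 libraries in 1 fit gave 31 and 14, and upper-quartile scaling gave 27 and 22. Over all genes these 3 settings called 3907 lower and 4106 higher, 3417 and 3367, and 3576 and 4425. Summed markers of dendritic cells and macrophages lay between 30.4 and 67.0 CPM in CTRL, and between 93.8 and 94.5 CPM in ATRA restimulated libraries, with Csf1r at 0 in all 6 libraries. B cell markers were at 2.85 to 4.40 and 10.2 to 11.6 CPM, and GL261 markers at 91.2 to 101.5 and 83.7 to 91.3 CPM. The part of these cells was not tested. In the deposited TPM values, all 48 called members had the same sign as in the counts, although Mrpl45 differed only between 62.9 ± 13.1 and 63.1 ± 10.5 TPM.

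Among the members that fell, Mrps33 of the small subunit head had the smallest p. It was at 63.3, 64.2 and 64.2 CPM in the CTRL and 35.5, 36.0 and 37.9 CPM in the ATRA restimulated libraries. The log2 fold change was -0.81 ± 0.09 (adjusted p = 6.3e-06). Mrps9, also a head protein, was at 75.8, 69.5 and 58.3 CPM in CTRL and 42.2, 37.9 and 38.1 CPM in ATRA cells (log2 fold change -0.79 ± 0.11, adjusted p = 5.81e-05). Mrpl28 was at 36.4, 42.5 and 30.05 CPM in CTRL and 20.7, 19.4 and 18.3 CPM in ATRA cells. The log2 fold change of Mrpl28 was -0.90 ± 0.13 (adjusted p = 9.18e-05). None of these 3 genes overlapped between the groups, and their ATRA libraries lay close together.

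The abundant Mrpl42 was at 187.2, 198.7 and 181.2 CPM in CTRL and 126.6, 127.6 and 130.4 CPM in ATRA restimulated cells. This gave a log2 fold change of -0.56 ± 0.07 (adjusted p = 1.1e-05), beside -0.77 ± 0.24 (adjusted p = 0.0496) after co-culture, where ATRA replicate 3 was at 50.9 CPM and the others at 99.0 and 93.7 CPM. Mrpl18, whose bacterial homologue binds 5S ribosomal RNA, fell from 78.6 ± 7.54 to 47.2 ± 3.55 CPM (log2 fold change -0.74 ± 0.10, adjusted p = 3.98e-05). Mrpl12, a stalk protein that also binds the mitochondrial RNA polymerase, fell from 41.4 ± 4.70 to 25.9 ± 1.87 CPM (log2 fold change -0.68 ± 0.12, adjusted p = 0.000274). Mrpl41 fell from 33.5 ± 3.97 to 21.7 ± 1.05 CPM (log2 fold change -0.62 ± 0.12, adjusted p = 0.000519). After co-culture Mrpl41 was at 21.6, 20.9 and 8.85 CPM in the ATRA libraries, the widest relative spread of any member in that group, and its decrease was not called (adjusted p = 0.194). The largest values in the restimulated cells were those of Mrpl23 (log2 fold change -1.31 ± 0.28, adjusted p = 0.00148) and Mrpl14 (-1.19 ± 0.25, adjusted p = 0.00131). The pseudogene row Mrpl23-ps1, with many more counts than Mrpl23, had a log2 fold change of -0.43 (adjusted p = 0.0011).

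The homologues of bacterial S18 rose together in restimulated ATRA cells. Mitochondria carry 3 of them, and in ribosome structures MRPS18C and MRPS18B lie in the small subunit while MRPS18A lies in the large one. Mrps18a was at 23.0, 23.0 and 28.0 CPM in CTRL and 44.0, 40.6 and 41.3 CPM in ATRA libraries (log2 fold change 0.76 ± 0.11, adjusted p = 7.65e-05). Mrps18b was at 52.2, 69.6 and 60.4 CPM in CTRL and 106.7, 99.7 and 105.1 CPM in ATRA libraries (log2 fold change 0.78 ± 0.10, adjusted p = 2.74e-05). Mrps18c was at 74.7, 78.1 and 71.1 CPM in CTRL and 90.1, 92.8 and 92.5 CPM in ATRA libraries (log2 fold change 0.30 ± 0.07, adjusted p = 0.00355). Groups were apart for all 3. After co-culture their log2 fold changes were -0.16, -0.015 and -0.29, of which only that of Mrps18c was called (adjusted p = 0.0466), and its call ended with the batch block (adjusted p = 0.117). Because the 3 genes were singled out as homologues with earlier results known, their joint rise is a description.

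Of the other members that rose after restimulation, 4 encode proteins around the exit of the peptide tunnel, and most do not. Mrpl32, which must be processed by the m-AAA protease before it joins the ribosome, was at 84.9, 88.6 and 84.8 CPM in CTRL and 125.8, 142.3 and 120.9 CPM in ATRA cells (log2 fold change 0.59 ± 0.08, adjusted p = 3.41e-05). Mrpl17 was at 18.3, 21.4 and 20.2 CPM in CTRL and 33.3, 29.3 and 31.2 CPM in ATRA cells (log2 fold change 0.65 ± 0.11, adjusted p = 0.000308). Mrpl45, which anchors the ribosome to the inner membrane, and Mrpl47 rose less (log2 fold changes 0.29 and 0.34, adjusted p = 0.00809 and 0.00957). Of the 7 tunnel exit genes, 4 thus rose and 2, Mrpl23 and Mrpl24, fell, beside 31.8% and 30.8% of all genes tested. Whether this group differs from all genes was not tested.

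**Figure D2:**
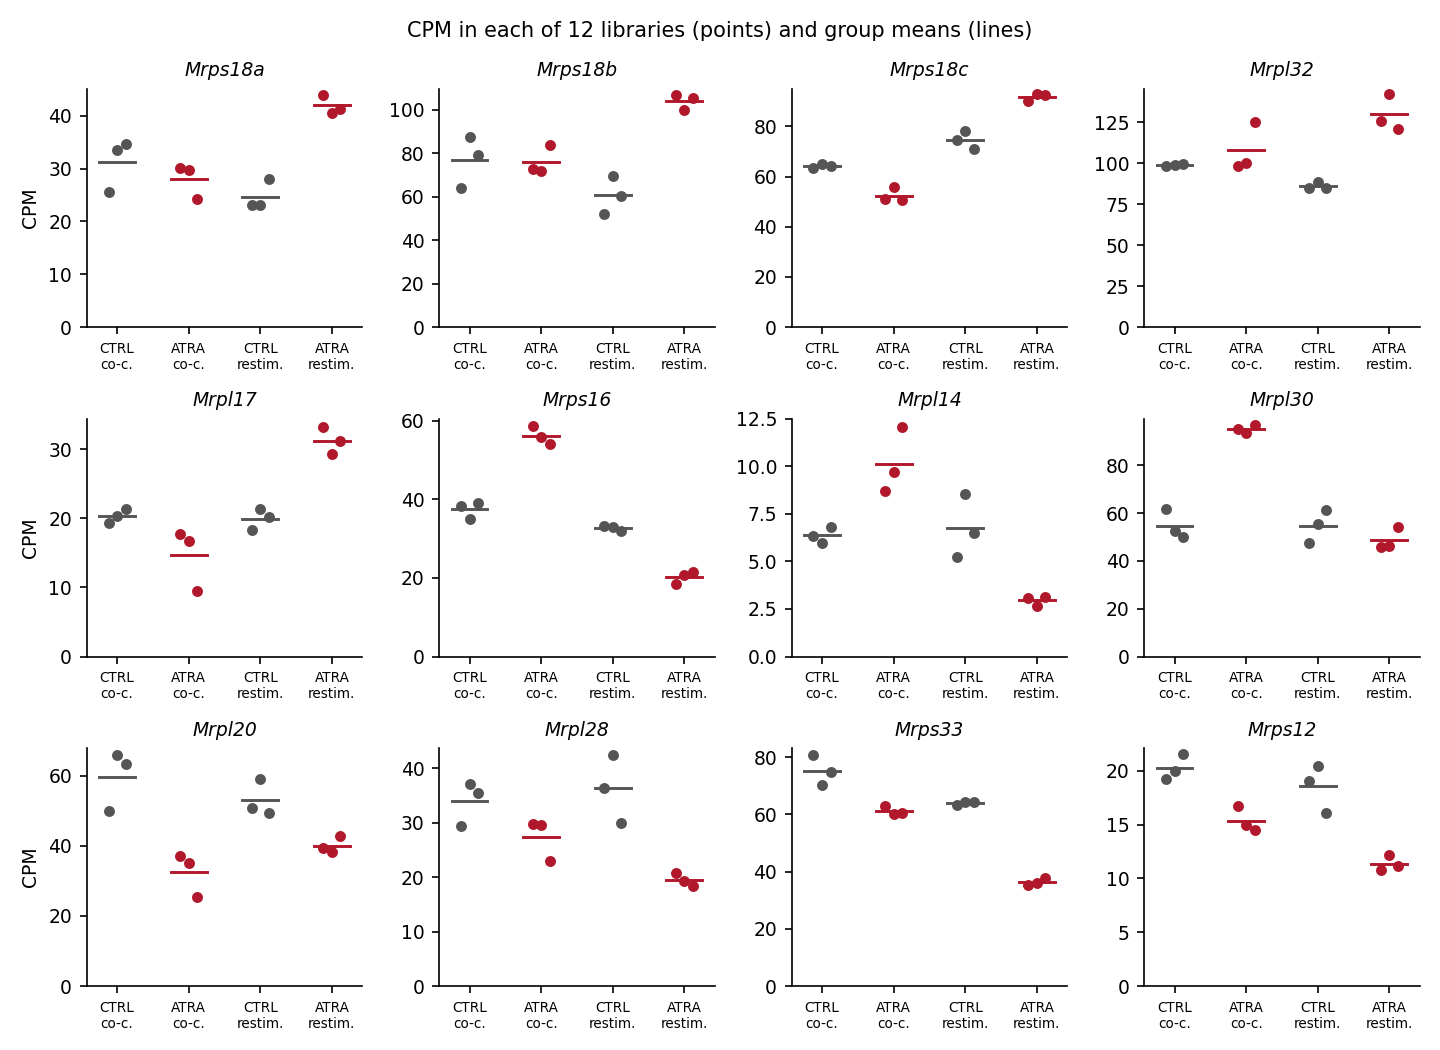
CPM of 12 members in each of the 12 libraries (points) and group means (lines), with CTRL in grey and ATRA in red. Mrps16 and Mrpl14 lie higher in ATRA after co-culture and lower after restimulation, and the ATRA libraries of the 3 Mrps18 genes lie above the CTRL libraries after restimulation.

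The remaining groups by position in the ribosome hold few genes each. They are to be read against the 30.8% lower and 31.8% higher of all genes after restimulation. Of 4 genes at the catalytic core, Mrpl2, Mrpl4 and Mrpl16 fell after restimulation, with log2 fold changes of -0.90, -0.46 and -0.60. The fourth, Mrpl3, mutated in a human cardiomyopathy, had means of 89.9 ± 12.5 (CTRL) and 84.9 ± 1.79 CPM (ATRA; adjusted p = 0.499). Of 6 genes of the central protuberance, Mrpl18, Mrpl27 and Mrpl48 fell and Mrpl46 rose, the last without a call once the batch was a block (adjusted p = 0.0659). Of 5 stalk genes, Mrpl12 fell and Mrpl53 rose (log2 fold change 0.49, adjusted p = 0.0318), and the stalk base gene Mrpl11 had fallen after co-culture (log2 fold change -0.53 ± 0.13, adjusted p = 0.0258) but had -0.11 after restimulation (adjusted p = 0.467). Mrpl10, which binds the stalk proteins, was not called in either state (log2 fold changes -0.21 and 0.24, adjusted p = 0.181 and 0.0792).

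In the small subunit, both genes assigned to the decoding centre and the messenger RNA channel fell after restimulation. Mrps12, the homologue of the bacterial protein in which streptomycin resistance arises, was at 19.1, 20.5 and 16.1 CPM in CTRL and 10.8, 12.1 and 11.2 CPM in ATRA cells (log2 fold change -0.70 ± 0.14, adjusted p = 0.00105). It had also fallen after co-culture, from 20.3 ± 1.18 to 15.4 ± 1.20 CPM (adjusted p = 0.0464, and 0.119 with the batch block). Mrps5 fell from 53.2 ± 6.20 to 41.2 ± 0.299 CPM (log2 fold change -0.37 ± 0.10, adjusted p = 0.00865), while the TPM values of Mrps5 were 54.7 ± 5.64 and 53.2 ± 5.14. Of 7 genes of the small subunit head, Mrps9 and Mrps33 fell and Mrps10 rose (log2 fold change 0.48, adjusted p = 0.00291). Of 5 platform genes, Mrps15 and Mrps21 fell and Mrps18c rose. Mrps2, Mrps30, Mrps34, Mrps36 and Mrpl58, a peptidyl-tRNA hydrolase of the large subunit, were not called in either state. Mrps30, which lies in the large subunit in ribosome structures, was at 91.7 ± 2.74 and 98.4 ± 3.72 CPM after restimulation (adjusted p = 0.233). Mrps36 was at 46.9 ± 3.79 and 40.0 ± 6.05 CPM (adjusted p = 0.122). Mrps34, whose exons overlap those of Nme3 on the same strand, was at 11.0 ± 2.35 and 9.44 ± 0.654 CPM (adjusted p = 0.339), while Nme3 fell by 1.01 on the log2 scale (adjusted p = 0.000144). Mrps2 was at 31.5, 27.8 and 13.2 CPM in ATRA co-culture cells, against 30.3, 38.2 and 34.4 CPM in CTRL, with replicate 3 far below the others (log2 fold change -0.50 ± 0.31, adjusted p = 0.235). The restimulated means of Mrps2 were 52.0 ± 3.25 and 52.7 ± 0.114 CPM. Mrpl58 was at 13.3 ± 0.809 and 15.8 ± 0.459 CPM after co-culture and at 17.1 ± 1.61 and 16.6 ± 1.27 CPM after restimulation.

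The third comparison asked where the effect of ATRA differed between the states, by an interaction over all 12 libraries. It was called for 36 members: in 21 the effect was more positive after restimulation and in 15 more negative. Of all 12364 genes tested, 23.6% were called in the first direction and 25.5% in the second, beside 26.9% and 19.2% of the members. The median interaction was 0.15 over members and -0.07 over all genes. Scaling by library totals left 22 and 8 calls. With the batch block 29 of the 36 were called again, and without replicate 3 of ATRA co-culture 35 were, all 36 with the same sign in both fits. No batch holds both states, so a difference of effects between the states cannot be told apart from one between the batch sets.

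Mrps16 and Mrpl14 were called in opposite directions in the 2 states, Mrpl14 without a co-culture call once the batch was a block. Mrps16, higher with ATRA after co-culture, was at 33.2, 33.0 and 32.0 CPM in CTRL and 18.5, 20.7 and 21.5 CPM in ATRA restimulated cells. Its restimulated log2 fold change was -0.70 ± 0.11 (adjusted p = 0.000118) and the interaction was -1.28 ± 0.13 (adjusted p = 9.26e-06). Mrpl14 was at 5.22, 8.56 and 6.504 CPM in CTRL and 3.08, 2.67 and 3.11 CPM in ATRA restimulated cells, with an interaction of -1.86 ± 0.30 (adjusted p = 0.000311). The overlapping gene Tmem63b instead stayed higher in ATRA cells, with a log2 fold change of 1.416 after restimulation (adjusted p = 5.5e-07). Mrpl30, higher after co-culture, was at 54.8 ± 6.88 and 48.6 ± 4.78 CPM after restimulation (adjusted p = 0.213), an interaction of -0.97 ± 0.17 (adjusted p = 0.000465).

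The opposite crossing, lower with ATRA after co-culture and higher after restimulation, was called for Mrpl37, Mrpl44, Mrpl47 and Mrps18c. With the batch block none of the 4 kept its co-culture call (adjusted p = 0.0679, 0.0963, 0.0654 and 0.117), while their restimulated calls and their interactions were made again. Mrpl44, which has the fold of ribonuclease III, was at 28.9 ± 0.963 and 22.1 ± 2.50 CPM after co-culture and at 29.8 ± 3.81 and 37.1 ± 3.08 CPM after restimulation. Its co-culture call lay at the threshold (adjusted p = 0.04996), its restimulated one had an adjusted p of 0.0352, and its restimulated groups overlapped. The interaction of Mrpl44 was 0.70 ± 0.17 (adjusted p = 0.00479). Mrpl17 had the most positive interaction of the members, 1.12 ± 0.26 (adjusted p = 0.00382). In ATRA co-culture cells Mrpl17 was at 17.7, 16.8 and 9.45 CPM against 19.4, 20.3 and 21.4 CPM in CTRL, a decrease that was not called (adjusted p = 0.165). Lower in both states were Mrpl16, Mrpl20, Mrpl42, Mrpl50, Mrpl51, Mrps12 and Mrps21, and no member was higher in both. Of these 7, Mrpl42 and Mrps12 lost the co-culture call with the batch block (adjusted p = 0.0588 and 0.119). The 23 members without a call in either state made up the largest set. How many of all genes tested crossed or were called in both states was not counted, so these sets only describe the members.

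**Figure D3:**
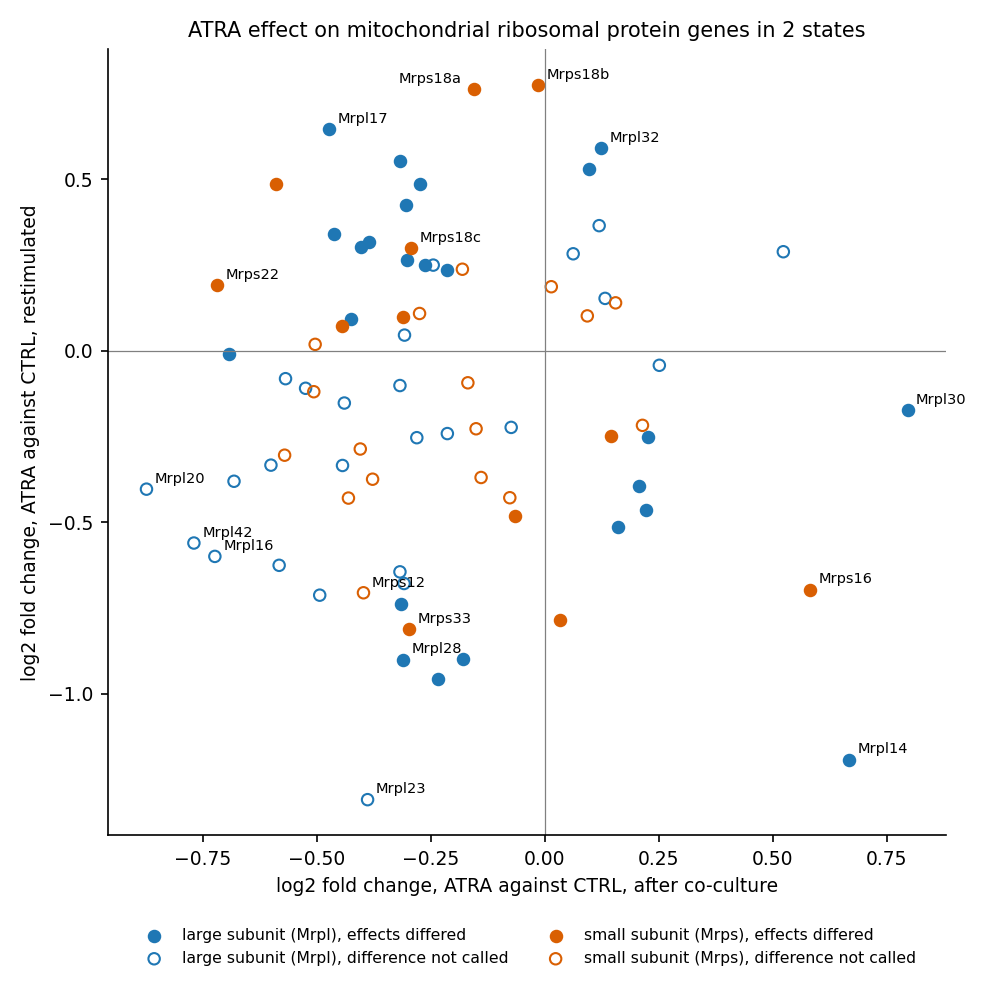
Log2 fold change of ATRA against CTRL after co-culture (horizontal axis) and after restimulation (vertical axis) for the 78 members, large subunit in blue and small subunit in orange. Filled points are the 36 members whose effects differed between the states; Mrps16 and Mrpl14 lie at the lower right and Mrpl17, Mrps18a and Mrps18b at the top.

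Restimulated cells were also compared with co-culture cells of the same treatment. In CTRL cells 10 members fell and 3 rose, of backgrounds of 16.6% and 15.9% of all genes. In ATRA cells 19 fell and 26 rose, of backgrounds of 31.5% and 29.8%. Both comparisons set one deposited table and batch set against the other, so the change cannot be told apart from those. Scaling by library totals gave 4 lower and 4 higher in CTRL cells and 15 lower and 32 higher in ATRA cells, and it shifted the median of all genes from -0.03 to 0.13 in the ATRA comparison. In CTRL cells, 4 were lower without co-culture replicate 2, without co-culture replicate 3 or without restimulated replicate 3, and 5 without restimulated replicate 1. There 1 was higher without co-culture replicate 2 or 3 or without restimulated replicate 1 or 2. The largest changes in CTRL cells were in Mrpl55, from 16.5 ± 1.95 to 10.3 ± 1.78 CPM (log2 fold change -0.77 ± 0.21, adjusted p = 0.014), Mrpl53, from 12.6 ± 1.65 to 8.10 ± 1.41 CPM (log2 fold change -0.74 ± 0.16, adjusted p = 0.00495), and, among small subunit genes, Mrps6, from 38.8 ± 2.77 to 29.3 ± 1.65 CPM (log2 fold change -0.50 ± 0.12, adjusted p = 0.00612). With library totals in place of TMM, the median of the members in CTRL cells went from -0.08 to 0.00.

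Summed over the genes of a subunit, the level was lower in ATRA than in CTRL co-culture cells for both subunits. The large subunit genes summed to 1961, 2155 and 2124 CPM in CTRL and to 1849, 1838 and 1746 CPM in ATRA co-culture libraries. The small subunit genes summed to 1178, 1252 and 1241 CPM and to 1112, 1087 and 1021 CPM. Neither sum overlapped between the groups, and the means differed by -12.9% and -12.3%. After restimulation the sums were 2233, 2302 and 2089 CPM in CTRL and 2050, 2060 and 2068 CPM in ATRA libraries for the large subunit, and 1324, 1329 and 1225 against 1242, 1235 and 1241 CPM for the small one. Every restimulated ATRA sum of the large subunit lay below the CTRL sums, whereas those of the small subunit lay above the lowest CTRL sum, and the means differed by -6.75% and -4.13%. The ratio of large to small subunit sums was 1.70 ± 0.031 and 1.69 ± 0.024 after co-culture and 1.71 ± 0.023 and 1.66 ± 0.0094 after restimulation (CTRL and ATRA, SD, n = 3). With Mrps18a and Mrps30 counted in the large subunit, its co-culture means were 2184.8 (CTRL) and 1917.3 CPM (ATRA). Its restimulated means were then 2324.5 and 2199.5 CPM. Those of the small subunit were 1119.1 and 967 CPM after co-culture and 1176.2 and 1098.8 CPM after restimulation. None of these sums was tested, and abundant genes such as Mrpl42 weigh most in them.

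**Figure D4:**
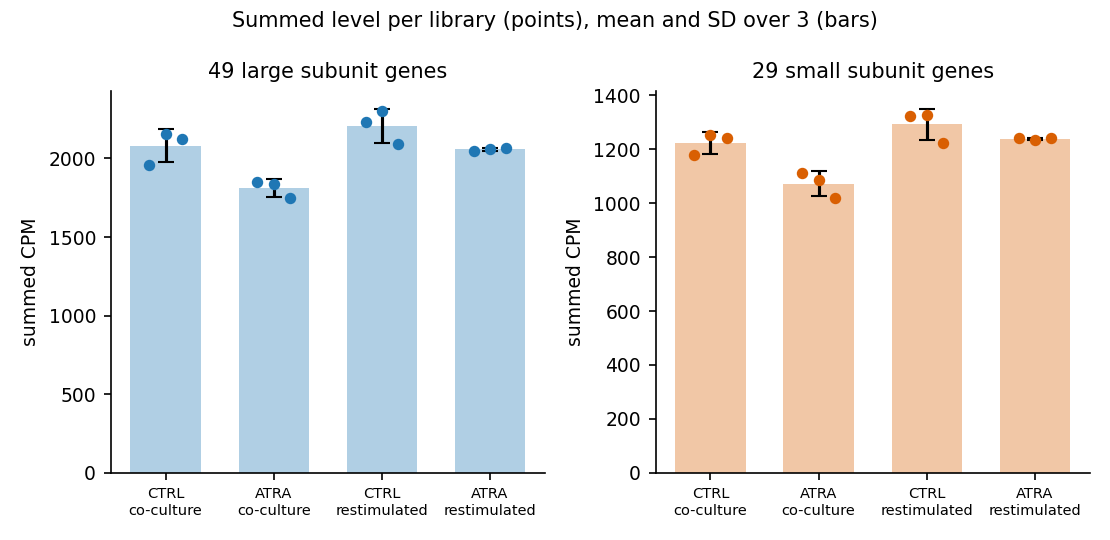
Summed CPM of the large subunit genes (left) and the small subunit genes (right) in each group. Points are single libraries, bars are means and error bars SD over 3 libraries; both sums are lowest in ATRA co-culture cells.

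Genes that work with the mitochondrial ribosome were compared by lists of their known roles, to be read against the 31.8% higher and 30.8% lower of all genes after restimulation and the 18.1% and 15.5% after co-culture. The list of mitochondrial aminoacyl-tRNA synthetases, which load the transfer RNAs, also holds the amidotransferase subunit genes Qrsl1, Gatb and Gatc. Of its 20 genes 11 fell after restimulation, with a median log2 fold change of -0.39. Qrsl1 and Gatb were among these 11 (log2 fold changes -0.63 and -0.47). After co-culture 3 of the 20 fell, Qrsl1 among them. Genes that maintain or transcribe mitochondrial DNA fell for 6 of 10 after restimulation, among them Tfam, the packaging factor, from 46.9 ± 3.88 to 32.2 ± 0.682 CPM (log2 fold change -0.54, adjusted p = 0.00052), and Tfb2m, a transcription initiation factor (log2 fold change -1.27, adjusted p = 4.8e-05). Ribosome assembly and rRNA modification factors rose for 9 and fell for 6 of 29 after restimulation, shares no higher than those of all genes. Tfb1m, which methylates the small subunit rRNA, fell by 1.396 on the log2 scale (adjusted p = 5.1e-06), and Trub2, a pseudouridine synthase, had a log2 fold change of 0.95 (adjusted p = 9.9e-06). Afg3l2, a subunit of the m-AAA protease that matures MRPL32, had log2 fold changes of 1.12 after co-culture (adjusted p = 0.0091) and -0.53 after restimulation (adjusted p = 3.1e-05).

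Translation factors fell for 5 and rose for 1 of 15 after restimulation, and fell for 3 of 16 after co-culture; the shares that fell were near those of all genes (30.8% and 15.5%). Gfm1, the elongation factor G of mitochondria, fell in both states (log2 fold changes -0.61 and -0.57, adjusted p = 0.017 and 0.00013). Of 5 ribosomal proteins under other symbols, 2 fell in each state and 1 rose after co-culture. Chchd1 fell in both states (log2 fold changes -0.62 and -0.61), and Dap3, of the small subunit head, had 0.36 after co-culture (adjusted p = 0.0701) and fell by 0.40 after restimulation (adjusted p = 0.00085). The messenger RNAs that the ribosome translates, those encoded by mitochondrial DNA, were called in 0 of 13 cases after co-culture by edgeR, with 1 at an unadjusted p under 0.05. After restimulation 9 of 13 were higher in ATRA cells and 1 was lower. For example, mt-Co1 was at 1640 ± 72.1 and 1975 ± 81.2 CPM (log2 fold change 0.27, adjusted p = 0.0012), and mt-Nd6, the one of these genes on the light strand, fell by 0.57 on the log2 scale (adjusted p = 0.00018). The mitochondrial ribosomal RNAs are not analysed here.

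Among nuclear regulators of mitochondrial genes, 5 of 9 fell and 3 rose after restimulation. Nrf1 fell from 42.0 ± 3.10 to 29.9 ± 1.31 CPM (log2 fold change -0.49, adjusted p = 0.0012). The subunits of the ETS factor GABP differed, with Gabpa at a log2 fold change of -0.36 (adjusted p = 0.002) and Gabpb1 at 0.49 (adjusted p = 0.001). Myc fell by 1.67 on the log2 scale (adjusted p = 1.5e-08), from 206.2 ± 24.4 to 64.9 ± 3.76 CPM, and Mycn rose from 1.85 ± 0.211 to 9.21 ± 0.637 CPM. After co-culture, of these 9 genes Mycn rose (log2 fold change 1.80, adjusted p = 0.0387).

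**Figure D5:**
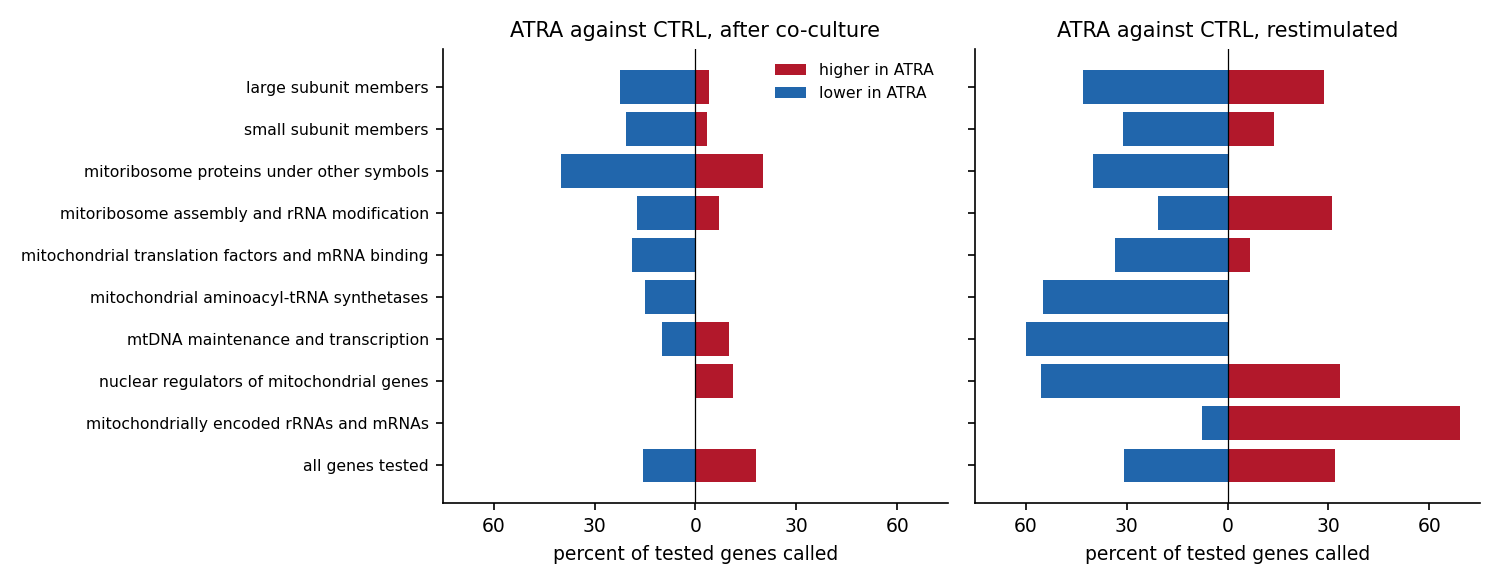
Percent of the tested genes of each list called higher (red, to the right) or lower (blue, to the left) in ATRA cells, after co-culture (left panel) and after restimulation (right panel), with all genes tested at the bottom. After restimulation the synthetase and mitochondrial DNA lists extend only to the left and the mitochondrially encoded genes mainly to the right.

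The promoters of several members are shown because the genes moved together or in opposite directions after restimulation. RefSeq promoter windows on build GRCm38.p6, from 250 bases before to 50 bases after the start of transcription, were matched by symbol for 69 of the 78 members. They were searched on both strands for the cores of binding motifs of factors known to act on mitochondrial genes: GCATGCGC for NRF1, CCGGAAG for ETS factors such as GABP, AAGATGGC for YY1, and the E-box CACGTG bound by MYC. None of these motifs contains another, but ETS and YY1 matches can overlap by their last and first letters. The sequences run 5′ to 3′ on the strand of the gene and cover the 250 bases before the start, with matches in capitals. The first 3 belong to the Mrps18 genes, which rose after restimulation, followed by Mrpl32, which also rose, and by Mrps16 and Mrpl14, which fell. The regions are chr17:46110754-46111003 (plus strand) for Mrps18a, chr17:35916441-35916690 (minus strand) for Mrps18b, chr5:100798509-100798758 (plus strand) for Mrps18c, chr13:14613038-14613287 (minus strand) for Mrpl32, chr14:20393491-20393740 (minus strand) for Mrps16 and chr17:45686099-45686348 (plus strand) for Mrpl14.
Mrps18a: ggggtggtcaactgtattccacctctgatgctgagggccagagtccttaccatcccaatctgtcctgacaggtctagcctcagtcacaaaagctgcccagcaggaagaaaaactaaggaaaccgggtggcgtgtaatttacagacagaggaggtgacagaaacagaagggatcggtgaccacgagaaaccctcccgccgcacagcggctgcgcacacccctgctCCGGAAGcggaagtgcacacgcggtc
Mrps18b: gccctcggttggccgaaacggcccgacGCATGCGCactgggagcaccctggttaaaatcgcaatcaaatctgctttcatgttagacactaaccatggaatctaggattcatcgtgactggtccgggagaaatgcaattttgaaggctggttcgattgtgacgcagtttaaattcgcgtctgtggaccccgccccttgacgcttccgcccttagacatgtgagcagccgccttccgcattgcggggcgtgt
Mrps18c: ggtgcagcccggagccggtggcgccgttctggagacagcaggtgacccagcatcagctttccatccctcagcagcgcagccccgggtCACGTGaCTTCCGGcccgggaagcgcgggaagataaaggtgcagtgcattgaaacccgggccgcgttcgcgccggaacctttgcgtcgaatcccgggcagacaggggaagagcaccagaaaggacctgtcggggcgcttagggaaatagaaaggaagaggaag
Mrpl32: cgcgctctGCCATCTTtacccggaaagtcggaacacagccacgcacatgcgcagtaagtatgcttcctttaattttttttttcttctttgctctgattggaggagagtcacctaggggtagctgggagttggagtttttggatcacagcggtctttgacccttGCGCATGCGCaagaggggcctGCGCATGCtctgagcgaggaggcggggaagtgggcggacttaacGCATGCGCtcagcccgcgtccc
Mrps16: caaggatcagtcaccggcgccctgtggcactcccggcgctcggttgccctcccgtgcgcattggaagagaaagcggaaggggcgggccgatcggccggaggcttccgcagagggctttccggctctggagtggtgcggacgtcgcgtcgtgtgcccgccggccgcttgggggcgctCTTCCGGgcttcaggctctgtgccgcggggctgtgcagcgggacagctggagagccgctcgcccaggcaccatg
Mrpl14: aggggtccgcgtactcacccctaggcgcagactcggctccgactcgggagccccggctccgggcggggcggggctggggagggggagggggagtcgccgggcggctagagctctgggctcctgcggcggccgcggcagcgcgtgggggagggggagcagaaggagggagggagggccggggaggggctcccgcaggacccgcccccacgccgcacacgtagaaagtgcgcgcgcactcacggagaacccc
In Mrps18a the ETS match began 26 bases before the start, and a YY1 match lay after the start. In Mrps18b the capitals mark an NRF1 match that began 223 bases before the start. Another NRF1 match and the ETS match of this gene lay after the start. In Mrps18c an E-box and an ETS match stood 1 base apart, beginning 163 and 156 bases before the start. Mrpl32 held 4 NRF1 matches, at 87, 85, 66 and 22 bases, of which the first 2 overlap, and a YY1 match. Mrps16, for which the table holds 2 windows, had an ETS match at 74 bases in the window shown and another after the start. Mrpl14 had no match in its window.

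Each motif except the E-box was found in a larger share of the members than of all genes in the table. ETS matches were found in 26 of the 69 members (37.7%), against 9.93% of all 27025 genes and 21.5% of the 8956 genes that were tested in both states. YY1 matches were found in 12 members (17.4%, against 3.19% and 5.69%), and NRF1 matches in 8 (11.6%, against 3.05% and 6.36%). The E-box was found in 5 members (7.25%), against 8.09% of all genes and 11.8% of those tested. Among the matched members that rose after restimulation, 7 of 18 held an ETS, 5 a YY1 and 4 an NRF1 match. Among those that fell, 10 of 27 held an ETS, 3 a YY1 and 0 an NRF1 match. Of the 24 called in neither direction, 9 held an ETS, 4 a YY1 and 4 an NRF1 match. By the co-culture calls, 0 of 3 that rose, 2 of 17 that fell and 6 of 49 without a call held an NRF1 match. These shares are descriptions without a test, and a match says only that the letters are there.

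Many members start next to a gene on the other strand. For 22 of the 69 members (31.9%), another gene began within 250 bases upstream on the opposite strand or overlapped the start by at most 50 bases, against 9.37% of all genes and 15.3% of those tested. Mrpl46, of the central protuberance, and Mrps11, of the small subunit platform, form such a pair with each other. The 41 bases between their starts, chr7:78783090-78783130 on GRCm38.p6, read on the strand of Mrps11:
between Mrpl46 and Mrps11: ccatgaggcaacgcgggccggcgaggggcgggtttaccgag
After restimulation Mrpl46 was at 27.5, 28.5 and 24.9 CPM in CTRL and 33.3, 32.5 and 31.3 CPM in ATRA cells and rose (log2 fold change 0.26 ± 0.10, adjusted p = 0.0418). The batch block ended that call of Mrpl46 (adjusted p = 0.0659). Mrps11 was at 11.1, 10.6 and 12.8 CPM in CTRL and 7.28, 11.3 and 9.74 CPM in ATRA cells, which overlapped (log2 fold change -0.29 ± 0.19, adjusted p = 0.214). Whether the paired genes differ from each other was not tested. Mrps12 lies beside Sars2, a mitochondrial seryl-tRNA synthetase gene, which fell after co-culture (log2 fold change -0.65, adjusted p = 0.0336) but had 0.11 after restimulation (adjusted p = 0.429), where Mrps12 fell. Mrpl43 and its partner Twnk, the mitochondrial DNA helicase gene, both fell after restimulation (log2 fold changes -0.40 and -0.99). Mrps18c rose there, while its partner Helq fell (log2 fold change -0.70, adjusted p = 7.38e-05). In GENCODE M21, 28 of the 78 members overlap exons of a gene on the opposite strand and 8 exons of one on the same strand, Mrpl43, Mrpl46 and Mrps11 among the former, so counts of these members may hold reads of their neighbours if the counting ignored strand.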

How the data were processed

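RNA-seq of 12 libraries, 3 in each of 4 groups, was analysed from 2 deposited tables of gene counts, 1 per state, and 1 deposited table of TPM for the restimulated cells. Per the submitters' processing notes the tools were cutadapt 5.0, STAR 2.7.11b, Salmon 1.10.3 and DESeq2 1.42.1, with build mm39; no source used here gives their order, the annotation or the strand setting. The authors' co-culture count table holds 13948 genes, each with at least 10 counts in all, and the restimulated one 35588 rows, of which 16386 are at 0 throughout. For the 32 repeated symbols the row with the largest total was kept. The deposited TPM columns show the treatment only, so they carry no replicate number, and fold signs were compared on log2(TPM + 1).

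Groups and batches came from the labels. Counts were fitted with edgeR 4.0.16 (R 4.3.3): TMM scaling, filterByExpr by group and the quasi-likelihood test, with Benjamini-Hochberg adjustment over all genes tested and calls at an adjusted p under 0.05. The ATRA effect was fitted within each state on 6 libraries, and the interaction and the change with restimulation on all 12, over the 13625 symbols in both tables. The scripts were tested on simulated data. CPM are TMM-scaled, and precision is limited by counting at the depths given and by 3 libraries per group. No 2 libraries of a group agreed within sampling noise (lowest chi-square per degree of freedom 3.76). Per the labels, same-numbered CTRL and ATRA libraries of a state share a batch, so the numbers pair them; correlations of their deviations from the group means were 0.13, -0.061 and 0.066 after co-culture and -0.035, -0.095 and 0.04 after restimulation. The batch was not in the model of the values reported, and was a block in an alternative. Other alternatives were DESeq2 1.42.0, RLE, upper-quartile and library-total scaling, no filter, repeated symbols summed, all 12 libraries in 1 fit, a TPM pseudocount of 0.1 and leaving out each library.

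Members named with values were, in each ATRA comparison, the 4 Mrpl and 4 Mrps genes with the smallest p, the 3 with the largest interaction and the 3 with the largest restimulation change in CTRL cells, the 3 highest and 3 lowest by TPM, and, by name, Mrpl3, Mrpl10, Mrpl11, Mrpl12, Mrpl41, Mrpl44, Mrpl58, Mrps2, Mrps5, Mrps12, Mrps16, Mrps18a, Mrps18b, Mrps18c, Mrps22, Mrps30, Mrps34 and Mrps36. Others are named to spell out a count, a role or a neighbouring gene, after their values were seen. The members and all lists were chosen with earlier results of these data known. Promoters are RefSeq sequences on GRCm38.p6, and exon overlaps come from GENCODE M21 on GRCm38; neither is the build of the counts, and they were joined by symbol only.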

Additional observations from a re-analysis of the deposited data

Results flagged for a closer look

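The effect of ATRA differed between co-culture and restimulated cells in 36 of the 78 members by the interaction term of edgeR (adjusted p under 0.05), and each of these is listed here with its difference, the log2 fold change after restimulation minus that after co-culture. Large subunit genes with a more negative effect after restimulation were Mrpl14 (-1.865), Mrpl30 (-0.974), Mrpl34 (-0.724), Mrpl2 (-0.723), Mrpl4 (-0.691), Mrpl48 (-0.679), Mrpl43 (-0.607), Mrpl28 (-0.591), Mrpl24 (-0.479) and Mrpl18 (-0.427). Small subunit genes of that direction were Mrps16 (-1.282), Mrps9 (-0.82), Mrps33 (-0.517), Mrps15 (-0.418) and Mrps35 (-0.396). Large subunit genes with a more positive effect after restimulation were Mrpl17 (1.119), Mrpl49 (0.864), Mrpl47 (0.8), Mrpl53 (0.755), Mrpl1 (0.721), Mrpl37 (0.702), Mrpl44 (0.7), Mrpl22 (0.68), Mrpl46 (0.562), Mrpl39 (0.517), Mrpl21 (0.51), Mrpl32 (0.46), Mrpl10 (0.448) and Mrpl52 (0.429). Small subunit genes of that direction were Mrps10 (1.074), Mrps18a (0.919), Mrps22 (0.908), Mrps18b (0.784), Mrps18c (0.589), Mrps27 (0.515) and Mrps7 (0.407).

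Over all genes tested, 23.6% and 25.5% were called in these directions, so a call of this kind was common. With the batch as a block Mrpl10, Mrpl18, Mrpl28, Mrpl34, Mrps7, Mrps15 and Mrps35 were no longer called. State, batch set and deposited table cannot be told apart. The interaction compares effects that were each measured within a state, so a scale common to a table cancels. An ATRA effect that differs between the batch sets would not cancel, so these differences cannot be assigned to restimulation. Groups of 3 libraries are too small for the test of single outlying libraries used here, so none was made.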

How the results depend on the processing

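The count of members that fell with ATRA after co-culture depended most on the setting: 17 as reported, 27 with DESeq2, 11 with upper-quartile scaling, 6 with the replicate block, 32 with all 12 libraries in 1 fit, and 0 to 25 when single libraries were left out. The median over the members stayed negative in each of these. Over all genes, 1883 fell as reported, 2552 with DESeq2, 1504 with upper-quartile scaling and 1231 with the replicate block. With all 12 libraries in 1 fit 2884 fell, and 673 to 2859 when single libraries were left out. Library totals gave 8 members called lower for the interaction and 4 for restimulation in CTRL cells, with a median of 0.001 there. Leaving out single libraries gave 4 to 11 lower and 1 to 3 higher in that comparison. The median change with restimulation in ATRA cells was 0.234 with library totals, and the summed small subunit level after co-culture differed by -17.0% with CPM of library totals. With the replicate block 16 of 18 higher and 29 of 30 lower calls after restimulation and 29 of 36 interactions were made again.

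Of 1772 alternative values for 114 results of single genes, 1604 kept direction and call, 114 lost the call, 28 gained one and 26 changed sign; the cause was not tested. These 26 belong to 9 results without a call. When single libraries were left out, the ATRA effect after co-culture ran from -0.006 to 0.101 for Mrps9, from -0.129 to 0.077 for Mrps18b and from -0.168 to 0.000 for Mrps26. After restimulation it ran from -0.129 to 0.006 for Mrpl58, from -0.042 to 0.043 for Mrps2 and from -0.024 to 0.147 for Mrps27. The interaction ran from -0.345 to 0.158 for Mrpl41, from -0.028 to 0.373 for Mrpl42 and from -0.062 to 0.090 for Mrps30. Library totals gave -0.043 for Mrps9 after co-culture and 0.006 for the interaction of Mrpl41, which was 0.050 with the replicate block. Upper-quartile scaling gave 0.049 for Mrps18b after co-culture and 0.023 for Mrpl58 after restimulation. Mrpl23 and Mrpl14, with the fewest counts, had the widest errors of the ATRA effect after restimulation (SE 0.282 and 0.252). After co-culture the SE was 0.316 for Mrpl23 and 0.181 for Mrpl14, beside 0.323 for Mrpl41 and 0.309 for Mrps2.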
